A study of Homo sapiens with 12 samples.

Results

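Occupancy at 9 genes that decide between cell death and survival, BCL2, BCL2L1, MCL1, BIRC5, XIAP, BAX, BAK1, BBC3 and PMAIP1, was examined in chromatin immunoprecipitation sequencing of a breast cancer cell line. They were named as a list, out of 20090 protein-coding genes annotated on chromosomes 1 to 22 and X. Their regions were those lying between 1 kb upstream and 100 bp downstream of any annotated transcript start, here called the promoter, and those from 10 kb upstream to 10 kb downstream of the gene, here called the locus. HCC70 is an established triple-negative breast cancer line, a single line that stands for no other. Cells in medium with 10% FBS received vehicle or XY018, a compound that antagonizes the nuclear receptor RORγ, for 24 h, and no allele was changed in either group. The labels give XY018 at 5 µM, whereas the methods of the study give a lower dose. SREBP2, the transcription factor of sterol synthesis, RORγ, for which a rabbit serum was used, and H3K27ac, an acetylation of histone H3 at active promoters and enhancers, were each profiled in 1 vehicle and 1 XY018 library.

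Apoptosis through mitochondria is set by the balance within the BCL2 family. The anti-apoptotic proteins BCL2, BCL-XL (from BCL2L1) and MCL1 bind and restrain BAX and BAK1, the effectors that open the outer mitochondrial membrane, while BH3-only proteins such as PUMA (from BBC3) and NOXA (from PMAIP1) occupy the anti-apoptotic proteins and release the effectors. Once cytochrome c leaves the mitochondria, caspases are activated, and members of the inhibitor of apoptosis family such as XIAP hold them back. BIRC5 (survivin), of the same family, also acts in cell division, and MCL1 and survivin are often abundant in triple-negative tumors.

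The lists held 69700 to 167264 regions a library, with a sequencing depth, recovered from the peak values, of 3.65 to 6.16 tags per kb. These were relaxed lists, in which the lowest −log10 q-value of a library was 0.216 to 0.674. Their weakest regions thus do not reach q of at most 0.01. The study itself reports fewer high-confidence sites for SREBP2 and for RORγ. Presence in a list is therefore not by itself evidence of significant binding. H3K27ac marked the promoters of the basal markers KRT5, KRT17 and EGFR in both libraries, but not that of KRT14. With vehicle and XY018 these had 33 and 22 fragments at KRT5, 8 and 18 at KRT17 and 231 and 255 at EGFR. That of PGR was in neither list, those of ESR1 and ERBB2 were in both, with 10 and 13 fragments at ESR1 and 180 and 239 at ERBB2. The leukocyte genes PTPRC and CD3E had no such region, whereas COL1A1, a fibroblast gene, had one with 110 and 142 fragments, and what part this played was not tested. All strengths below are fragments stacked at the summit of a region, worked out from the fold and p that the peak caller wrote. With 1 library per group, no difference has a replicate check, and the 95% intervals cover counting error only.

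The DNA under the summits is shown first for 3 members at which both factors had strong regions, as 201 bases centered on the vehicle summit (reference genome GRCh37, the build called hg19, written 5′ to 3′ on the strand of the gene). BCL2 (SREBP2, chr18:60985585-60985785, minus strand) lies in a coding exon, as does MCL1 (SREBP2, chr1:150551668-150551868, minus strand). For BBC3 the strongest SREBP2 and RORγ regions with vehicle were different ones, in a coding exon (SREBP2, chr19:47731417-47731617, minus strand) and in an intron (RORγ, chr19:47733623-47733823, minus strand). Capitals mark GC boxes (GGGCGG, or CCGCCC when on the opposite strand), CCAAT boxes (CCAAT, or ATTGG) and E-boxes (CACGTG).
BCL2 SREBP2 summit: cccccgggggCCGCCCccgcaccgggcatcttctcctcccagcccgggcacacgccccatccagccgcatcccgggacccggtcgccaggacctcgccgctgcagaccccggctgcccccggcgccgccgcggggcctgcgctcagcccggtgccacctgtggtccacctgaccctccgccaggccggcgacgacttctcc
MCL1 SREBP2 summit: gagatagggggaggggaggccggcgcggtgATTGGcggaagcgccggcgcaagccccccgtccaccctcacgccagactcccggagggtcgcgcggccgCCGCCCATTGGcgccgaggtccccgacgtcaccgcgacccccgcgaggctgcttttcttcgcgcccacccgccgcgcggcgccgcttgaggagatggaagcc
BBC3 SREBP2 summit: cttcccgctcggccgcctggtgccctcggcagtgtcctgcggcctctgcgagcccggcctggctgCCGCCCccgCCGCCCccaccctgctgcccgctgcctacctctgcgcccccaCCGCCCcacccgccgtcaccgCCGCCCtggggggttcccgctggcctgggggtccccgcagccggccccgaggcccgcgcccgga
BBC3 RORγ summit: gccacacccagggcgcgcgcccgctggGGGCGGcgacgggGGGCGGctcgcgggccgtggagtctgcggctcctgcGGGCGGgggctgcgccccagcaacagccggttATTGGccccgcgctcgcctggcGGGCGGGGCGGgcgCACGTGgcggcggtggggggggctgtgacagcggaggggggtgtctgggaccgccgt
Counted from 1 at the 5′ end of each run, BCL2 had its GC box at position 11, MCL1 had CCAAT boxes at 31 and 106 with a GC box at 100 that abuts the second of them, and the SREBP2 window of BBC3 had GC boxes at 66, 75, 117 and 138. The RORγ window of BBC3 held GC boxes at 28, 41, 77, 131 and 136, of which the last pair overlap by 1 base, a CCAAT box at 109 and an E-box at 145.

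GC boxes were common at promoters in general, whereas CCAAT boxes and E-boxes were found at few. On both strands of such windows, GC boxes were found in 7 of 8 members at SREBP2 summits, BCL2L1 being without, against 69.9% of the 14184 genes that had such a summit. At RORγ summits 8 of 8 members had one, against 67.9% of 12588 genes. A CCAAT box was present at SREBP2 summits in MCL1 alone (8.32% of all genes) and at RORγ summits in 3 members, BCL2L1, MCL1 and BBC3 (7.06%). An E-box was present in BAX at the SREBP2 summit (4.76%) and in BAX and BBC3 at the RORγ summit (4.51%). No member window held the sterol regulatory element searched as TCACNCCAC (0.67% of all genes at SREBP2 summits and 0.643% at RORγ summits), nor AGGTCA, the core of many nuclear receptor elements (5.37% and 6.15%). The absence says only that these letters are not in these windows. Median GC content at SREBP2 summits was 74.6% both in the members and in all genes, and at RORγ summits it was 74.9% against 75.6%.

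The first question was which of the genes carried the factors and the mark. A promoter region was present in each of the 6 lists at 8 of the 9 genes. BAK1 was the exception, with no promoter region in any list. Of all protein-coding genes, 46.3% had a promoter region in all 6 lists and 17.5% had one in none. For single lists the share of genes was 70.6% for SREBP2 with vehicle and 62.7% with XY018, 62.7% and 61.5% for RORγ, and 66.8% and 68% for H3K27ac. No member had a promoter region with 1 treatment only in the deposited lists, which 8.8% of genes had for SREBP2 with vehicle and 0.866% with XY018, 5.17% and 4% for RORγ, and 2.17% and 3.39% for H3K27ac. This depended on the weakest regions. With q of at most 1e-05, SREBP2 was called at 8 members with vehicle and 6 with XY018, without BCL2L1 and BAX, and 10.7% of all genes were then called with vehicle only. With q of at most 0.01, RORγ was called at 8 and 7, without BCL2L1 with XY018, against 4.39% of all genes.

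BCL2, the founding anti-apoptotic member (chromosome 18, 60790579 to 60987361, minus strand), had the 2 factors at a pair of neighboring starts and the mark farther upstream. At the inner start (60985899), in the coding exon, SREBP2 gave 31 and 18 fragments with vehicle and XY018, and RORγ 38 and 40. At the outer start (60987361), SREBP2 gave 28 and 23 fragments and RORγ 26 and 13. The inner region was thus the strongest for SREBP2 with vehicle and for RORγ under both treatments, while the outer one was the strongest for SREBP2 with XY018. With vehicle, the strongest SREBP2 and RORγ summits lay 3 bp apart. H3K27ac, by contrast, peaked at -429 bp from the outer start with 100 fragments with vehicle, and at -421 bp with 138 fragments with XY018, and an inner H3K27ac region of 14 fragments was in the XY018 list alone. Across its 216.8 kb, the BCL2 locus held few other regions, 2 for each antibody with vehicle, of at most 15 fragments, and none of these overlapped an XY018 region.

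BCL2L1, which encodes BCL-XL (chromosome 20, 30252255 to 30311792, minus strand), had the weakest RORγ promoter region among the members. Its SREBP2 region had 19 fragments with vehicle against 11 with XY018, that of RORγ 7 and 5, and H3K27ac 105 and 94. Its RORγ region was lower than those of nearly all called promoters, exceeding 8.11% of them with vehicle and 1.72% with XY018, whereas its H3K27ac region exceeded 72.5% and 61.8%. The strongest H3K27ac region of the locus lay over the promoter, and smaller ones continued through the long intron, with 33 H3K27ac regions in the locus with vehicle and 37 with XY018 against 5 and 4 for SREBP2 and 4 and 3 for RORγ. One of them, in the intron 15133 bp from the nearest start (chromosome 20, 30290835 to 30292338 with vehicle), had 19 fragments with vehicle and 34 with XY018, a ratio of 1.96 (interval 1.09 to 3.64). It was picked for this ratio, and the intervals of all other paired H3K27ac regions of the locus included 1. Of all H3K27ac pairs of overlapping regions in the series, 9.55% had an interval above 1.

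MCL1, a short-lived anti-apoptotic protein (chromosome 1, 150533371 to 150552214, minus strand), had the strongest H3K27ac promoter region of the 9 genes with vehicle. H3K27ac gave 224 fragments with vehicle and 248 with XY018, more than at 97.9% and 96.4% of called promoters. SREBP2 gave 38 and 36 fragments and RORγ 43 and 24. Summits of the factors and the mark lay close together, SREBP2 and RORγ 3 bp apart and H3K27ac 41 bp from SREBP2 with vehicle. A second SREBP2 region of 31 fragments, at -57 bp from a start, was separate with vehicle, and with XY018 a single wider region of 1022 bp covered both. The locus runs into the neighboring gene ADAMTSL4, where 4 SREBP2 regions of 32 to 59 fragments with vehicle had 16 to 33 with XY018, and these belong to the locus by position only.

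Of the inhibitors of apoptosis, BIRC5 (chromosome 17, 76210267 to 76221717, plus strand) had weak factor regions. Its SREBP2 region had 19 fragments with vehicle against 17 with XY018, that of RORγ 9 and 8, and H3K27ac 68 and 49. The RORγ regions did not overlap, the vehicle region at 76210121 to 76210361 being over the first start and the XY018 region at 76210530 to 76210749 in an intron. A vehicle region of 8 fragments at 76210593 to 76210795 overlapped the latter, just outside the promoter window. The strongest SREBP2 and RORγ regions of the BIRC5 locus belonged by position to TMEM235, downstream, with 48 and 27 fragments for SREBP2 and 46 and 42 for RORγ. H3K27ac there gave 32 and 62 fragments, fewer than at the BIRC5 promoter with vehicle and more with XY018.

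XIAP, which binds caspases directly (chromosome X, 122993562 to 123047822, plus strand), had 32 SREBP2 fragments with vehicle against 17 with XY018. RORγ gave 26 and 17 fragments and H3K27ac 132 and 130. XIAP had the lowest SREBP2 ratio of the members, while its H3K27ac fragments were almost equal. Away from its first exons no SREBP2, RORγ or H3K27ac region of the XIAP locus exceeded 12 fragments.

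The effectors differed from each other. BAX (chromosome 19, 49458072 to 49465055, plus strand) had 20 SREBP2 fragments with vehicle against 12 with XY018, 12 and 8 for RORγ, and 46 and 41 for H3K27ac, the lowest H3K27ac of the 8 genes with a promoter region. Its locus held stronger factor regions than its promoter, among them one inside GYS1 (chromosome 19, 49472382 to 49473054) with 55 and 34 SREBP2 fragments and 39 and 30 RORγ fragments. BAK1 (chromosome 6, 33540324 to 33548070, minus strand) had H3K27ac inside the gene rather than at its start. The nearest H3K27ac region ended 612 bp short of the promoter window with vehicle (22 fragments) and 125 bp short with XY018, where a region of 25 fragments ran from 33544666 to 33547827. The nearest SREBP2 region with vehicle, of 7 fragments, was 1103 bp away, that with XY018 was 11734 bp away, and the nearest RORγ regions were 9963 bp away with vehicle and 11835 bp with XY018. The deposited H3K27ac lists are parts of longer call sets, so that a missing H3K27ac region is not evidence of its absence from the cells. With a window of 1 kb to either side of a start, BAK1 had an H3K27ac promoter region under both treatments and still none for SREBP2 or RORγ.

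**Figure D1:**
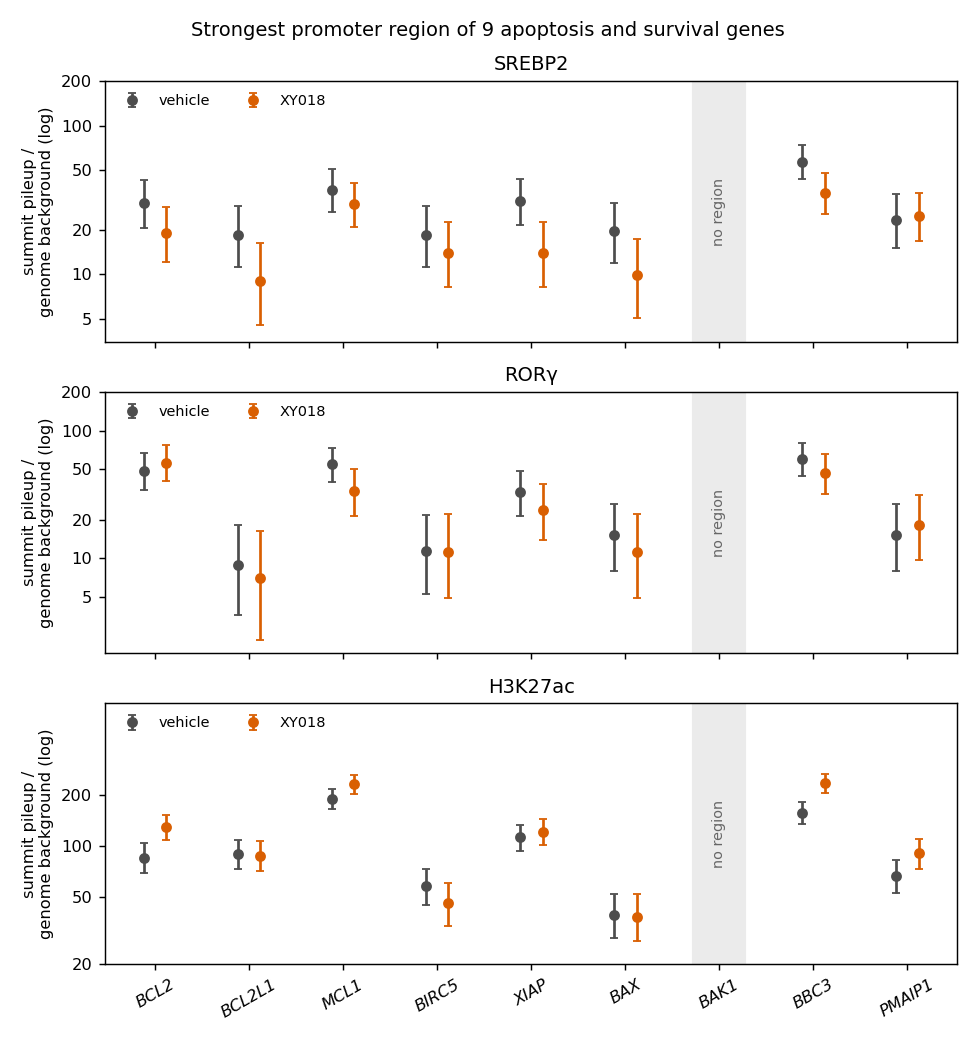
Summit pileup of the strongest promoter region divided by the genome-wide background of the library (log axis), for each gene, antibody and treatment, with vehicle in gray and XY018 in orange. Bars are exact Poisson 95% intervals of 1 library each, counting error only. BBC3 and MCL1 stood highest for H3K27ac, at 236 and 232 times background with XY018, and BAK1 had no region.

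BBC3, which encodes PUMA (chromosome 19, 47724079 to 47736023, minus strand), had the highest levels of both factors with vehicle. Its strongest SREBP2 promoter region gave 59 fragments with vehicle, more than at 92.4% of called promoters, and 39 with XY018. Its vehicle summit lay at -1071 bp from the nearest start, in a coding exon, and its edge reached into the promoter window. A second SREBP2 promoter region, in the intron near the start at 47734456, gave 43 fragments under both treatments and was the strongest with XY018. RORγ was strongest at this intronic region, with 47 fragments with vehicle and 33 with XY018, and gave 37 and 30 at the other. Still stronger for RORγ was a region upstream of the gene, at -6839 bp from the nearest start with vehicle, with 77 and 51 fragments, where SREBP2 had 57 and 47.

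H3K27ac at BBC3 was higher with XY018 at each of these places. At the coding-exon region it gave 184 fragments with vehicle and 252 with XY018, at the intronic region near the start 43 and 115, at another region within the gene (47728528 to 47730230) 175 and 204, and at the upstream region 28 and 54. The ratios over background were 1.5 (interval 1.24 to 1.82), 2.93 (2.05 to 4.26), 1.28 (1.04 to 1.57) and 2.11 (1.32 to 3.46). Weaker H3K27ac regions of the locus moved less evenly, with 19 and 11 fragments near the end of the gene. SREBP2 ratios over background in the same stretch were 0.560 (0.364 to 0.853) at the coding exon and 0.847 (0.542 to 1.32) at the intronic region. They were 0.774 (0.464 to 1.29) at the other region within the gene and 0.698 (0.464 to 1.05) upstream. Of these the interval of the coding-exon region alone lay below 1. So did that of a region near the end of the gene, with 40 and 23 fragments and a ratio of 0.487 (0.278 to 0.833). The median ratio over all promoters was 0.621 for SREBP2 and 1.27 for H3K27ac. Over all pairs of overlapping regions in the series it was 0.609 and 1.10. Of these pairs 95.7% were below 1 for SREBP2, and 64.2% were above 1 for H3K27ac, 9.55% with an interval above 1. Ratios below 1 for SREBP2 were thus general, and those above 1 for H3K27ac less so.

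PMAIP1, which encodes NOXA (chromosome 18, 57567228 to 57571537, plus strand), was the member whose SREBP2 did not have fewer fragments with XY018. SREBP2 gave 24 fragments with vehicle and 30 with XY018 at the main region, and 18 and 11 at another one at -192 bp from the nearest start. RORγ gave 12 and 13 fragments and H3K27ac 78 and 97. Summits of both factors and the mark stayed within 35 bp of each other under both treatments, the tightest arrangement of the 8 genes.

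**Figure D2:**
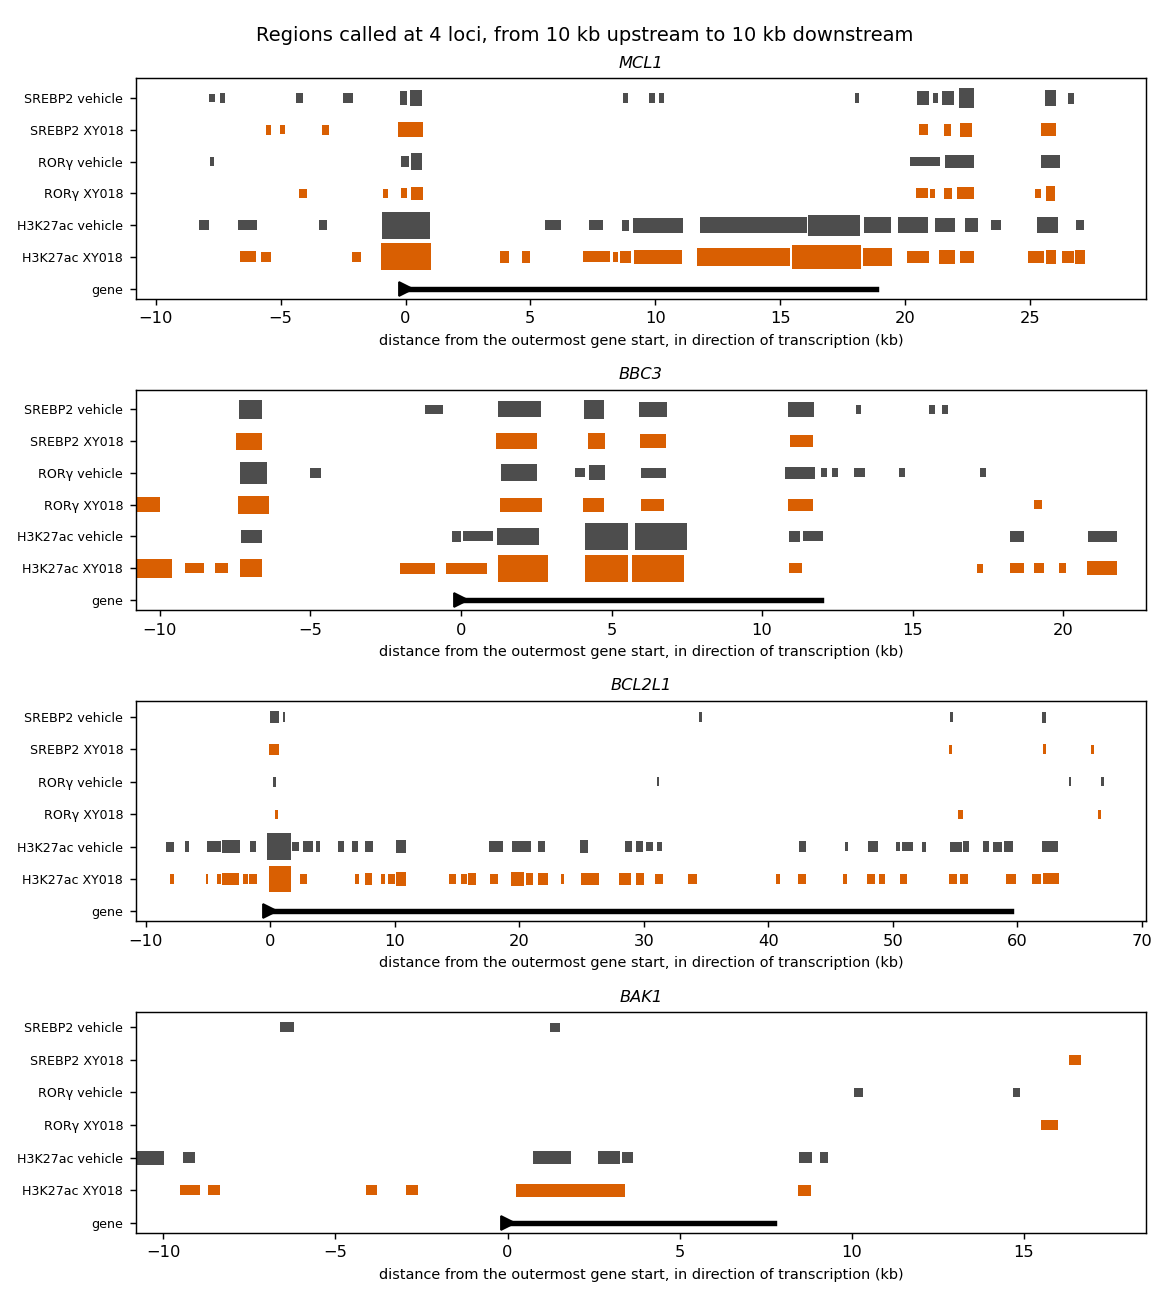
Regions called at the MCL1, BBC3, BCL2L1 and BAK1 loci in the 6 lists, by distance from the outermost gene start in kb in the direction of transcription. Vehicle is gray and XY018 orange, bar length is the width of the region, and bar height grows with its fragments up to 100. All 3 antibodies share places along BBC3, whereas the intron of BCL2L1 holds H3K27ac regions with few factor regions and the start of BAK1 holds none.

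Pileups were next compared between treatments, each divided by the genome-wide background of its own library, as the ratio of XY018 to vehicle. Ratios of promoters in general were not centered on 1, with a median over all protein-coding promoters called in both libraries of 0.621 over 12335 genes for SREBP2, 0.967 over 11309 genes for RORγ and 1.27 over 12879 genes for H3K27ac. A member's ratio is therefore also given relative to that median. Scaling by tags per kb, which leaves out a difference in fragment length between the SREBP2 libraries, raised the SREBP2 median of all promoters to 0.688 and left the others as they were.

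SREBP2 was lower with XY018 at 7 of 8 member promoters, against 98% of all promoters. The member median was 0.628, near that of all promoters. The lowest ratios were those of XIAP, 0.450 (interval 0.234 to 0.835), BCL2L1, 0.490 (0.211 to 1.08), and BAX, 0.508 (0.227 to 1.09), followed by BBC3. BCL2 at 0.696 (0.383 to 1.25), BIRC5 at 0.758 (0.370 to 1.54) and MCL1 at 0.802 (0.494 to 1.30) were below 1, but at 1.12, 1.22 and 1.29 they were above 1 when set relative to the median of all promoters. For BCL2 this held for the outer region. The inner one, the strongest with vehicle, had a ratio of 0.492 (0.259 to 0.907), below the 0.608 that all promoters had as their median when the region strongest with vehicle was taken for each. PMAIP1, at 1.06 (0.598 to 1.89), was higher than 98.5% of promoters, and relative to the median it was at 1.70. The intervals of XIAP and BBC3, and that of the inner BCL2 region, lay below 1, as did those of 36.8% of all promoters, so that the members were spread around the general level in both directions. The intervals of neighbors in this order overlap.

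RORγ could be paired at 7 members, since the BIRC5 regions did not overlap. It was lower with XY018 at 5 of these, against 55.3% of all promoters, and the member median was 0.776. MCL1 had the lowest ratio, 0.617 (0.358 to 1.04), higher than 5.88% of promoters only. XIAP at 0.723 (0.368 to 1.38), BAX at 0.737 (0.261 to 1.96), BBC3 at 0.776 (0.482 to 1.24) and BCL2L1 at 0.790 (0.198 to 2.89) followed. BCL2 at 1.16 (0.728 to 1.86) and PMAIP1 at 1.20 (0.504 to 2.87) were above 1. The BCL2 ratio is that of its inner region, and the outer one was at 0.553 (0.261 to 1.12). The interval of no member excluded 1, while it lay below 1 at 1.65% and above 1 at 1.13% of all promoters, and a difference of the sizes seen was not detectable at this depth.

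H3K27ac was higher with XY018 at 5 of 8 members, against 80.4% of all promoters, and the member median was 1.15. BCL2 at 1.51 (1.16 to 1.98), BBC3 at 1.5, PMAIP1 at 1.36 (1.001 to 1.86) and MCL1 at 1.21 (1.01 to 1.46) had intervals above 1, as did 36.1% of promoters. Relative to the median of all promoters BCL2, BBC3 and PMAIP1 were still above 1, at 1.19, 1.18 and 1.07, whereas MCL1 was at 0.953. XIAP at 1.08 (0.840 to 1.39) also passed below 1 on that scale, at 0.848. BCL2L1 at 0.981 (0.735 to 1.31), BAX at 0.976 (0.625 to 1.52) and BIRC5 at 0.789 (0.535 to 1.16) were below 1 on both scales, and BIRC5 was higher than 6.76% of promoters only. BCL2, BBC3 and PMAIP1 thus had the higher ratios and BIRC5 the lowest, and genes for survival and for death stood on both sides of 1. Here too the intervals of neighbors in this order overlap. Among the pairs compared here, 1 for each member and antibody, only the BIRC5 interval for H3K27ac left out the median of all promoters. The intronic BBC3 promoter region was not the pair compared. Its H3K27ac ratio of 2.93 (2.05 to 4.26) had an interval above that median.

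**Figure D3:**
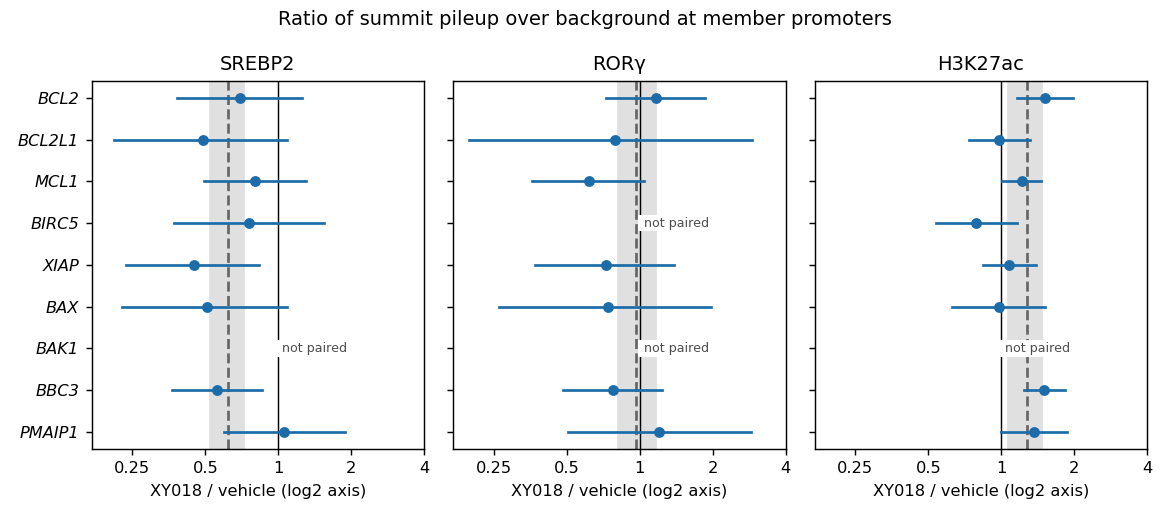
XY018 to vehicle ratio of the summit pileup over background at the promoter of each gene (log2 axis), with 95% intervals for counting error. The dashed line is the median of all protein-coding promoters, 0.621 in the SREBP2 panel, 0.967 in the RORγ panel and 1.27 in the H3K27ac panel, and the band spans their quartiles. Most intervals include the dashed line, and BIRC5 lies below it for H3K27ac.

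Whether regions called with vehicle were called again with XY018 was asked over the whole loci. A vehicle region was counted as kept when it had at least 1 bp in common with a region of that antibody in the XY018 list, and as lost otherwise. SREBP2 regions were kept in 24 of 54 cases, 44.4% (exact binomial interval 30.9 to 58.6%), against 39.8% of all SREBP2 vehicle regions. RORγ regions were kept in 25 of 50 cases (35.5 to 64.5%), against 36.4%. H3K27ac regions were kept in 70 of 88 cases, 79.5% (69.6 to 87.4%), against 69.3%. Promoter regions of the members were kept in 12 of 15 cases for SREBP2 and 12 of 13 each for RORγ and H3K27ac, while 74%, 78.6% and 86.9% of vehicle regions at all protein-coding promoters were kept. Elsewhere in the loci SREBP2 kept 12 of 39 regions, RORγ 13 of 37 and H3K27ac 58 of 75, against 31.4%, 30.5% and 63.9% of all regions outside promoters. Lost regions were weak ones, with a median of 7 fragments against 32 in kept ones for SREBP2, 5 against 15 for RORγ and 11.5 against 17.5 for H3K27ac, and none had more than 16. Regions called with XY018 alone numbered 9, 13 and 34.

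Single loci held few regions, and differences between them were not tested. MCL1 kept 6 of 16 SREBP2 regions and 5 of 6 RORγ regions, and BIRC5 kept 2 of 7 RORγ regions, beside the 39.8% and 36.4% of all SREBP2 and RORγ regions. BBC3 lost 4 of 9 SREBP2 regions, of at most 7 fragments, and 6 of 12 RORγ regions. PMAIP1 lost none for any antibody, and BAK1 lost both of its SREBP2 and both of its RORγ regions. Within these loci, 46.3% of SREBP2 regions overlapped a RORγ region with vehicle (32.6 to 60.4%), against 49.0% of all SREBP2 regions, and 61.1% overlapped an H3K27ac region (46.9 to 74.1%), against 27.3%. Of the RORγ regions, 48.0% overlapped an H3K27ac region (33.7 to 62.6%), against 16.7%. The shares over all regions count regions anywhere in the genome, whereas 8 of these 9 loci hold an H3K27ac promoter region.

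**Figure D4:**
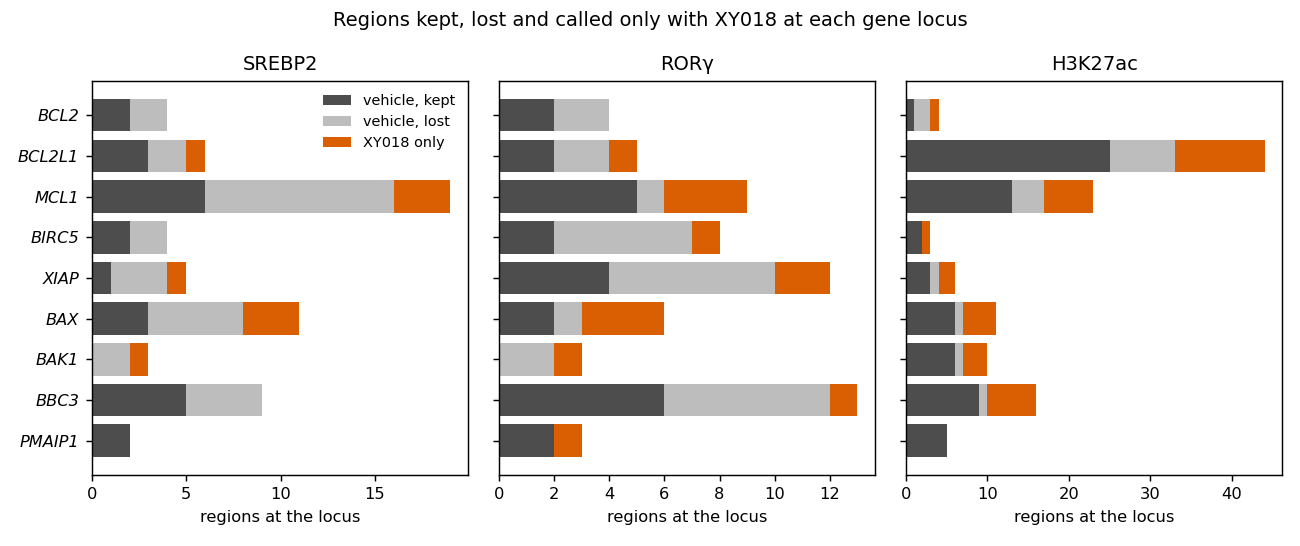
Number of regions at each locus that were called with vehicle and kept with XY018 (dark gray), called with vehicle and lost (light gray), or called with XY018 alone (orange), for each antibody. BCL2L1 has the most H3K27ac regions, 33 with vehicle, and MCL1 the most SREBP2 regions, 16 with vehicle, of which 10 are lost.

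Regions kept at the loci were paired and compared in the same way. For SREBP2, 22 of 23 pairs were below 1, as were 95.7% of all pairs of the series, with a median of 0.524 against 0.609, and 11 intervals lay below 1, against 33% of all. For RORγ, 11 of 23 pairs were below 1, against 46%, with a median of 1.01 against 1.04, and no interval excluded 1, whereas 0.462% of all lay below it and 1.02% above. For H3K27ac, 42 of 63 pairs were above 1, against 64.2%, with a median of 1.21 against 1.10. Of its intervals 12 lay above 1 and 1 below, against 9.55% and 1.05% of all. The highest H3K27ac ratio was that of the intronic BBC3 region. These pairs leave out the lost regions, and several lie in neighboring genes such as ADAMTSL4, TMEM235 and GYS1. Most of the SREBP2 intervals below 1 were those of regions inside these neighboring genes.

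The other genes of the pathway were taken from a list of 31, from BCL2L2 to the caspase substrate PARP1. With vehicle, 25 of them had SREBP2 at the promoter, 23 had RORγ and 27 had H3K27ac, and with XY018 these counts were 24, 23 and 28. Of all protein-coding genes, 70.6%, 62.7% and 66.8% had such a region with vehicle, and 62.7%, 61.5% and 68% with XY018. Only CYCS, which encodes cytochrome c, with 15 SREBP2 fragments with vehicle, and the caspase inhibitor gene BIRC3, with 13 H3K27ac fragments with XY018, were called with 1 treatment alone. Over all genes, 8.8% had SREBP2 with vehicle only and 3.39% had H3K27ac with XY018 only. Each of the 6 BH3-only genes, BCL2L11, BAD, BID, BIK, BMF and HRK, was in all 6 lists, and BCL2A1 and NAIP were in none. For all protein-coding genes these shares were 46.3% in all 6 lists and 17.5% in none. The death receptor arm was covered at 4 of 5 genes by the factors, TNFRSF10B having H3K27ac alone.

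SREBP2 was lower with XY018 at 23 of 24 paired promoters of these genes, against 98% of all promoters, with a median of 0.662 and a highest ratio of 1.13 at the adaptor gene FADD, among genes with at least 20 fragments in both libraries together. RORγ was lower at 15 of 23, against 55.3%, with a median of 0.869. Its ratios ran from 0.368 at the death receptor gene FAS (18 and 6 fragments) to 1.66 at both BMF (14 and 21) and BIRC2 (8 and 12). H3K27ac was higher at 21 of 26, against 80.4%, with a median of 1.38 and a highest ratio of 2.28 at HRK (24 and 50). The strongest vehicle H3K27ac region at the HRK promoter, of 36 fragments, was not the one in this pair.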

How the data were processed

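Reads were processed by the authors. The methods of the study name the AQUAS pipeline, alignment of single-end reads to hg19 with BWA, removal of duplicates, and MACS 2.1.0, whereas the submitters' processing notes name Bowtie2 together with MACS2 2.1.0 and bedtools. The labels name a paired-end library kit. Each deposited list held the regions of 1 library, with the authors' fold enrichment at the summit (a ratio of pileup plus 1 to local background plus 1), −log10 p-value, −log10 q-value and summit position. The deposited display score was not used. Peak numbers in the H3K27ac lists reached 245055 and 241397 with gaps, so those lists hold part of longer call sets. The sources used here do not state the rule behind this selection. The 6 input libraries were not used.

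Regions on chromosomes 1 to 22 and X were kept. Fold and p-value were inverted under a Poisson model to the local background and to whole fragments at the summit, with a tolerance of 5% of the step between neighboring whole numbers. All but 1 region gave whole fragments. The most common local background, 0.712 to 1.21 fragments, was taken as genome-wide, and with the smallest region width as fragment length it gave the depth in tags per kb. Promoters and genes came from GENCODE 44 lifted to GRCh37. At a promoter, the overlapping pair of regions with the most fragments in sum was compared, and elsewhere the strongest overlapping region. Regions shared or kept had at least 1 bp in common. Fragments have exact Poisson 95% intervals, ratios exact conditional binomial ones and shares exact (Clopper-Pearson) binomial ones. No p-value was computed, since each group had 1 library as the antibody and treatment labels give it. The text names all 9 members, and of 31 further pathway genes those called with 1 treatment alone and those with the lowest and highest ratio among genes with at least 20 fragments, except where a value is not reported here. Other pathway genes were named, after their calls were seen, to say which BH3-only genes were in all lists and which genes were in none. TNFRSF10B was named as having H3K27ac alone, as CASP8 and CASP10 also had. The members, lists and comparisons were chosen with earlier results of these data known, and the pairs over whole loci and the shares of all such pairs, promoter regions and other regions were added last. Alternatives were stricter q thresholds, lists of equal length, other promoter windows, transcripts and overlaps, and other scalings. The code was tested on simulated data and ran in Python 3.11.15 with numpy 2.4.6, pandas 2.3.3, scipy 1.17.1 and matplotlib 3.10.9.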

Additional observations from a re-analysis of the deposited data

How the results depend on the processing

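Each of 138 alternative values was compared with the reported one, and 125 moved by less than the interval of the value or, for counts of genes, by less than 1.5 times. For a median over the members, the medians of the single members' interval bounds were used, which are wide, 0.368 to 1.86 for RORγ. Scaling by tags per kb could not change a RORγ or H3K27ac ratio, since fragment length was equal in both libraries. The count of 125 is therefore not a measure of stability. RORγ promoter regions were present at 5 members under both treatments with q of at most 1e-05, without BCL2L1, BIRC5, BAX and BAK1, whose regions are weaker or missing. The share of all protein-coding genes with a RORγ region at this threshold was not computed, so this count cannot be set against a general level. SREBP2 regions at BCL2L1 and BAX were then in the vehicle list alone, as was the RORγ region of BCL2L1 at q of at most 0.01. The kept share rose with thresholds that take out weak regions, for SREBP2 to 73.1% at q of at most 1e-05 and 69.7% with lists of equal length, and for RORγ to 73.1% at q of at most 0.01 and 93.8% at 1e-05, against 60.3%, 62.2%, 45.8% and 80.6% over all regions. With summits required to lie within 100 bp it was 32.0% for RORγ and 48.9% for H3K27ac, and for RORγ it was 69.6% over gene bodies without flanks. Relative to the median of all promoters the H3K27ac median was 0.900, MCL1 H3K27ac was 0.953 in place of 1.21, BBC3 SREBP2 was 0.901 and BBC3 H3K27ac 1.18, each by construction of that scale. Of 69 alternatives of single ratios, 5 crossed 1, all on that scale. No paired analysis was possible because each group held 1 library. Depth limits the RORγ ratios most, with regions of 5 to 13 fragments at BCL2L1, BIRC5, BAX and PMAIP1.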

Other observations

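For each member with a promoter region in all 6 lists, the gene with the most similar pileups over background was sought by the Euclidean distance of the 6 log2 values over 9309 other genes. The smallest distance was that of BBC3 to ZNF219, 0.17, against a median of 3.0 over all genes, and the levels were 57.4 and 52.5 for SREBP2 with vehicle and 236 and 224 for H3K27ac with XY018. BCL2 was nearest to LRRK1 (0.34), MCL1 to PRRC2B (0.30), BCL2L1 to EEF1AKMT2 (0.37), BIRC5 to GTF3A (0.34), XIAP to ZDHHC14 (0.24), BAX to TSPAN15 (0.32) and PMAIP1 to PIK3R1 (0.42). In none of these pairs did the genes share a region.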
